A study of Mus musculus with 3 samples.

Results

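Integrins and laminins were followed across 3 mouse tissues by every gene on the array whose name in the scanner files was that of an integrin α or β gene or of a laminin α, β or γ gene. The name rule gave 42 genes of the 19729 named genes on the array, read by 88 probes on 106 spots. Of these, 26 were integrin chains and 11 were laminin chains. The other 5, Itgb1bp1, Itgb1bp2, Itgb3bp, Itgbl1 and Nmrk2 (listed under its older name Itgb1bp3), match the rule by name but encode no chain of either family. The tissues were adult liver from C57BL/6 mice of 12 weeks, fetal liver of the same strain at gestation day 13.5, and C57BL/6 bone marrow, with 1 array of total RNA each. The labels do not say plainly whether the marrow donors were of the same age as the adult liver donors, and they give neither treatment nor genetic change. Since there was 1 array per tissue, no spread between animals could be estimated, and each difference below describes these 3 RNA samples without a test.

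Integrins are receptors of the cell surface built from an α and a β chain, which bind matrix proteins or partners on other cells and couple them through talin and kindlin to the actin skeleton. Laminins are trimers of an α, a β and a γ chain and form the sheet of the basement membrane together with type IV collagen, nidogen and perlecan. Fetal liver and bone marrow are both sites of blood formation, where integrin α4β1 holds progenitors to stroma that carries Vcam1, leukocytes carry the β2 integrins, and megakaryocytes and platelets carry αIIbβ3. Adult liver consists largely of hepatocytes, and its sinusoids lack a continuous basement membrane. In RNA from whole tissue, fewer cells of a type and less RNA per cell cannot be told apart.

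Levels are given as the scanner's processed signal, and differences as ratios of scaled signals, each signal being divided first by the 75th percentile of all gene spots of its array. That percentile was 296.5 in adult and 386 in fetal liver, and 894.5 in bone marrow, so equal signals correspond to a lower scaled signal in bone marrow. A difference of 4-fold or more was counted. Where a probe was not well above background in 1 tissue, the difference is a lower bound and is written as at least so many fold. Between 52.6% and 58.8% of gene spots were well above background, and no spot was saturated. The tissue labels were checked against marker genes. Hepatocyte markers were well above background for 9 of 9 genes in adult liver and 7 in fetal liver but only 3 in bone marrow, with summed scaled signals of 3228, 467 and 0.575. All 10 erythroid markers were well above background in fetal liver and bone marrow and 4 in adult liver, with sums of 53.6 in adult and 762 in fetal liver, and 548 in bone marrow. Scaling on the spiked-in control RNA in place of the percentile moved the median over all genes by 0.53 on the log2 scale toward fetal liver against adult liver, and by -2.31 for fetal liver and -2.84 for adult liver against bone marrow. Median scaling moved the last 2 of these by -0.42 and -0.37, and quantile normalization moved each of them by -0.14. A member's measured excess over bone marrow smaller than the spike-in shift therefore changes direction on that scale. A lower bound smaller than the shift has no value there. Either is said where a direction is given. An excess larger than the shift keeps its direction but can fall short of 4-fold there. On that scale 1 member, Itga1, stayed 4-fold higher in fetal liver than in bone marrow, and 0 members did in adult liver. Sums and medians of markers are given on the percentile scale only. A marker sum in liver that exceeds bone marrow by less than the shift would turn as well.

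Before the levels, the start regions of 6 members are shown, since their genes carried the differences described below: Itgam, Itgb2l and Itgb7 of the leukocyte group, Itga2b of megakaryocytes, Itga4 of progenitors and Lama5 as the laminin chain that differed most between fetal liver and bone marrow. Each is the 250 bases before the annotated start, 5′ to 3′ on the gene's own strand, from RefSeq (GRCm38.p6), and they lie at chr7:128062390-128062639 on the plus strand for Itgam, chr16:96443615-96443864 on the minus strand for Itgb2l, chr15:102231936-102232185 on the minus strand for Itgb7, chr11:102469884-102470133 on the minus strand for Itga2b, chr2:79255176-79255425 on the plus strand for Itga4 and chr2:180225860-180226109 on the minus strand for Lama5. Capitals mark 4 motifs searched on both strands: the PU.1 core GAGGAA, the GATA motif AGATAA, the GC box GGGCGG and CACCC.
Itgam: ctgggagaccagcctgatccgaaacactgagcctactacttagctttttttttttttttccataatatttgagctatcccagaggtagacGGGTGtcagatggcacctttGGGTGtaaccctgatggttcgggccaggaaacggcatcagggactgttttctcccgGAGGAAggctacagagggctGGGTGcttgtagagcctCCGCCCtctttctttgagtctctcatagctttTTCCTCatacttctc
Itgb2l: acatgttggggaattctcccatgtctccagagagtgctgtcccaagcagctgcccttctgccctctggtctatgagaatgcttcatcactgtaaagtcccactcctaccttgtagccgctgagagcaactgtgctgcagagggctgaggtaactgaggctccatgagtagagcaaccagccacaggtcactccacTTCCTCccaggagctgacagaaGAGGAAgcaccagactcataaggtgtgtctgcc
Itgb7: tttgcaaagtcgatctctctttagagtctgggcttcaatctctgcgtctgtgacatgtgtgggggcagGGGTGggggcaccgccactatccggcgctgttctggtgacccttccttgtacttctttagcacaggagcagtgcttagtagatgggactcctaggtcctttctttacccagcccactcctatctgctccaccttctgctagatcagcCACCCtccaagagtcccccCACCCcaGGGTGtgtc
Itga2b: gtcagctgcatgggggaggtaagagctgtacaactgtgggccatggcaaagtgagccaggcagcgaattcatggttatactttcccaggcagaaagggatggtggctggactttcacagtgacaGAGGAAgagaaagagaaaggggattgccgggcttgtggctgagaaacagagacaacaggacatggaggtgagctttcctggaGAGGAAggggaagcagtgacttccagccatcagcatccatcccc
Itga4: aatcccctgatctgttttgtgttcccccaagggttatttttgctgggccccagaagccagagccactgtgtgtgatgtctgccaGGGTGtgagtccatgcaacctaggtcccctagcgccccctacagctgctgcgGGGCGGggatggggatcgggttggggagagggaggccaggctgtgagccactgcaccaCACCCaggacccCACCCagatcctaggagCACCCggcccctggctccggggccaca
Lama5: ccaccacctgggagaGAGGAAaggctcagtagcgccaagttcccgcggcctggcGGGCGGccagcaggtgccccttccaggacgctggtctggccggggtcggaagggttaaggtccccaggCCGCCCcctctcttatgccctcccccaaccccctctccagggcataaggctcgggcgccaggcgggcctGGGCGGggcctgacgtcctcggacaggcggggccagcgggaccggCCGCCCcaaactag
The PU.1 core, named for a transcription factor of myeloid and B cells, occurred in 2 places each in the windows of Itgam, Itgb2l and Itga2b, and its match closest to the start began at position -15 in Itgam, -33 in Itgb2l and -44 in Itga2b. The window of Itgb7 held no PU.1 core and 4 CACCC matches. The window of Itga4 also held 4 CACCC matches, beside 1 GC box. The window of Lama5 held 4 GC boxes and 1 PU.1 core. Of 32851 RefSeq windows of this length, 23.25% held the PU.1 core, 9.988% the GATA motif, 32.74% the GC box and 52.01% CACCC. Sequences were matched for 28 of the 42 members, with 31 windows, of which 14 held the PU.1 core, 2 the GATA motif, 11 the GC box and 18 CACCC. A match is a run of letters, not a binding site, and a window without one says only that those letters are not in it.

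Itgb2 and its α partners Itgal, Itgam and Itgax had their highest signals in bone marrow. Itgb2, the β chain shared by the leukocyte integrins, gave signals of 153 in adult and 205 in fetal liver, and 24500 in bone marrow from a probe on chromosome 10, 77027978 to 77028037 (mm9). Bone marrow was 51.6-fold above fetal liver and 53.1-fold above adult liver on the scaled signals, and the livers differed by 1.03-fold, within the scanner's own error. Itgam, the α chain of the macrophage and neutrophil integrin, gave 4.07 in adult liver, not well above background, 18.7 in fetal liver, and in bone marrow 3440 (probe on chromosome 7, 135261475 to 135261534, mm9). That was 79.4-fold above fetal liver and at least 60.3-fold above adult liver, and the other Itgam probe, well above background in bone marrow only, was higher there by at least 31.9-fold and at least 19.5-fold. Itgal, the α chain of the lymphocyte integrin LFA-1, gave 288, 513 and 8690 in adult liver, fetal liver and bone marrow, 7.31-fold above fetal liver and 10.002-fold above adult liver. Itgax, the α chain typical of dendritic cells, gave 70.3, 32 and 1270 in the same order, 17.1-fold and 5.99-fold higher in bone marrow than in fetal and adult liver, the latter falling short of 4-fold with the mean of its probes and with normexp background correction (log2 -1.12 and -1.85 for adult liver over bone marrow). The other Itgax probe gave 20.4 in adult liver, not well above background, 19.9 in fetal liver and 48.5 in bone marrow. It put bone marrow only 1.05-fold above fetal liver, so that Itgax difference rests on 1 of 2 probes. The 2 livers lay close together against bone marrow for Itgb2 and Itgal, while for the brighter Itgax probe adult liver was 2.86-fold above fetal liver.

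Itgb2l, which encodes the β2-like protein pactolus of mouse neutrophils, had the largest difference of the family. Its signals were 4.54 in adult liver, not well above background, 51.7 in fetal liver, and in bone marrow 27200, 227-fold above fetal liver and at least 477-fold above adult liver. It resembles Itgb2 in sequence, and how much signal each probe takes from the other gene was not tested. Itgb7, the β chain that pairs with α4 or αE in lymphocytes homing to the gut, gave 196, 587 and 16300 in adult liver, fetal liver and bone marrow, so bone marrow was 12.0-fold above fetal liver and 27.6-fold above adult liver. Itgae, the αE chain of T cells lodged in epithelium, went another way. Its signals were 83.3 in adult liver, 11 in fetal liver (not well above background), and in bone marrow 56.2, and adult liver was at least 7.23-fold above fetal liver and 4.47-fold above bone marrow, the last turning to bone marrow with spike-in scaling. The bound against fetal liver fell short of 4-fold with normexp, the mean of its probes and the authors' deposited table (log2 -1.29, -0.73 and -1.72 for fetal over adult liver). The Itgae gap to bone marrow fell short of it with these 3 and with median and quantile scaling, at log2 1.16 to 1.87. The other Itgae probe was not well above background on enough arrays to be compared.

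Markers of the blood cells that carry these chains were measured beside them. Neutrophil markers were well above background for 3 of 10 genes in adult liver and for all 10 in fetal liver and bone marrow, with summed scaled signals of 2.96, 147 and 2044, and Mpo, Elane, Ltf, Camp, Ngp, Mmp9 and Retnlg were not well above background in adult liver. B lineage markers summed to 3.08 in adult and 2.42 in fetal liver, against 171 in bone marrow (7, 7 and 10 of 10 well above background), with Cd79a, Pax5 and Igll1 not well above background in either liver. T and NK cell markers summed to 7.20, 1.65 and 43.5 (6, 4 and 10 of 10), with Cd3g, Cd2, Gzma and Klrb1c not well above background in either liver. Macrophage and Kupffer cell markers summed to 99.6, 56.2 and 51.5 (10, 9 and 9 of 10), highest in adult liver with the percentile scaling, by less than the spike-in shift against bone marrow. Their median scaled signals were 3.95, 1.09 and 5.42, highest in bone marrow. The part of these cell types in the integrin differences was not tested.

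**Figure D1:**
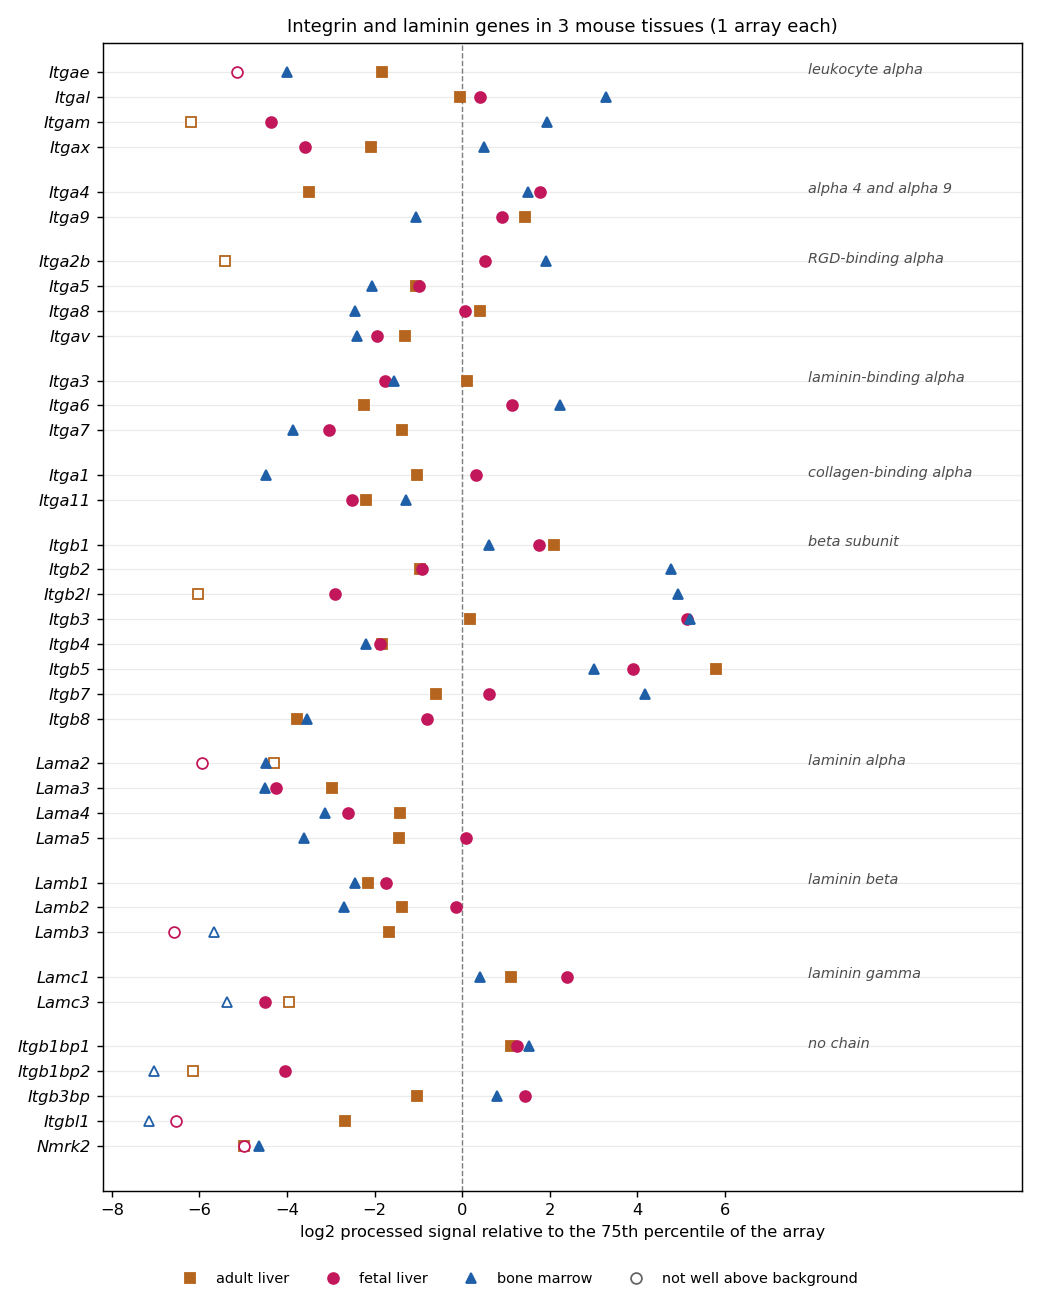
Log2 of the scaled signal (signal over the array's 75th percentile) of the members well above background in at least 1 tissue, grouped by role, with 1 point per tissue and open points where the probe was not well above background. The bone marrow points of Itgb2, Itgb2l, Itgam and Itgb7 lie far to the right of both liver points, while the adult liver points of Itga4, Itga2b and Itga6 lie far to the left of the other 2 tissues.

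A second set of chains was high in both blood-forming tissues and low in adult liver. Itga4, the α chain that binds Vcam1 and fibronectin, gave 26.4 in adult and 1330 in fetal liver, and 2550 in bone marrow (probe on chromosome 2, 79170690 to 79170749, mm9). Fetal liver was 38.7-fold and bone marrow 32.02-fold above adult liver, while fetal liver and bone marrow differed by 1.21-fold, within the scanner's error. Of its 6 probes, 4 could be compared with adult liver, and each of these was lower there than in the other 2 tissues. Between fetal liver and bone marrow they did not all agree. A probe with 385 in fetal liver and 181 in bone marrow put fetal liver 4.93-fold higher, slightly less than the spike-in shift. The rest of the 4 differed by 1.21-fold to 1.36-fold. Itgb3, the β chain of the platelet integrin, gave 336, 13500 and 33100 in adult liver, fetal liver and bone marrow from the probe on chromosome 11, 104531672 to 104531731 (mm9), 30.9-fold and 32.7-fold above adult liver. Fetal liver and bone marrow differed by 1.06-fold, within the scanner's error. A second Itgb3 probe, on the same chromosome at 104528490 to 104528560, did not share this pattern: its signals were 788, 705 and 1300, which put adult liver 1.46-fold above fetal liver and 1.83-fold above bone marrow, the latter turning to bone marrow with spike-in scaling. The Itgb3 difference therefore rests on 1 of its 2 probes.

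Itga2b, the αIIb chain that pairs with β3 on platelets, gave 6.91 in adult liver, not well above background, 556 in fetal liver, and in bone marrow 3400. Fetal liver was thus at least 22.6-fold and bone marrow at least 59.6-fold above adult liver, and bone marrow 2.64-fold above fetal liver. Itga6, a laminin-binding α chain of progenitors, epithelia and platelets, gave 62.7, 857 and 4240, so that fetal liver was 10.499-fold and bone marrow 22.4-fold above adult liver. A second probe of Itga6 gave 8.33-fold and 14.8-fold in the same directions. The other probe, well above background in fetal liver only, was at least 3.95-fold higher there than in bone marrow, opposite to the other 2, and less than the spike-in shift. Megakaryocyte and platelet markers were well above background for 7 of 10 genes in adult liver, where Gp1ba, Gp5 and Gp6 were not, and for all 10 in the other tissues, with summed scaled signals of 5.27 in adult and 174 in fetal liver, and 187 in bone marrow. These sums were lower in adult liver than in the other tissues, as were the signals of Itga4, Itga2b, Itga6 and the brighter Itgb3 probe, and the part of these cells in those differences was not tested.

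Itgb1, the β chain with the most α partners, varied little in signal. A probe on chromosome 8, 131256492 to 131256551 (mm9), was spotted 10 times on each array and gave 1276 ± 44.8 in adult and 1297 ± 26.3 in fetal liver, and 1375 ± 44.8 in bone marrow (SD over 10 spots of 1 RNA, which holds measurement error only). After scaling, adult liver was 1.28-fold from fetal liver, within the scanner's error for a single spot. The gap was wider than the spread of the 10 spots, at scaled signals of 4.30 ± 0.15 in adult and 3.36 ± 0.068 in fetal liver. Its log2 of -0.36 was smaller than the spike-in shift of 0.53 between the livers. Adult liver was 2.80-fold above bone marrow, which turned to bone marrow with spike-in scaling. A dimmer Itgb1 probe gave 44.7, 81.9 and 203, with bone marrow 1.51-fold above adult liver after scaling. Neither probe reached 4-fold in any pair of tissues.

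Of the α chains that pair with β1, Itga1, a collagen receptor, gave 144 in adult and 484 in fetal liver against 39.8 in bone marrow, so that fetal liver was 28.2-fold and adult liver 10.9-fold above bone marrow. With spike-in scaling only the gap of fetal liver to bone marrow stayed 4-fold. Its other 2 probes gave 40.7, 25.2 and 59.6, and 52.4, 22.3 and 147, and neither was 4-fold apart in any pair, so the Itga1 difference rests on 1 of 3 probes. Itga8, which binds nephronectin and is known from hepatic stellate cells, gave 391, 406 and 163, with fetal liver 5.77-fold and adult liver 7.24-fold above bone marrow. These gaps, log2 2.53 and 2.86, barely exceeded the spike-in shifts of -2.31 and -2.84, so both fell far short of 4-fold on that scale. A second Itga8 probe, at log2 2.80 for adult liver over bone marrow, turned to bone marrow there. Itga9, the tenascin-binding relative of α4, gave 801, 727 and 431, and adult liver was 5.61-fold above bone marrow, which turned to bone marrow with spike-in scaling. Itga7, a laminin receptor of muscle, gave 115, 47.2 and 61.2, with adult liver 5.67-fold above bone marrow and again the opposite with spike-in scaling, and under 4-fold with normexp (log2 1.81). Itga3, Itga5, Itga11 and Itgav were measured in all 3 tissues without reaching 4-fold, and the fibronectin receptor chain Itga5 gave 142, 196 and 216.

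Among the β chains that pair with αV, Itgb5, a vitronectin receptor, was brightest in adult liver. Its signals were 16400 in adult and 5770 in fetal liver, and 7270 in bone marrow (probe on chromosome 16, 33949123 to 33949182, mm9), so that adult liver was 3.70-fold above fetal liver and 6.81-fold above bone marrow, the latter turning to bone marrow by a log2 difference of -0.07 with spike-in scaling. Itgb8, whose αVβ8 receptor activates TGF-β, was highest in fetal liver with 222, against 21.7 in adult liver and 77.2 in bone marrow, which is 7.86-fold and 6.66-fold. With the mean of all its probes both log2 differences, 0.71 and 1.49, were under 4-fold, and the first of them was also with normexp (1.45) and in the authors' deposited table (1.91). The second, against bone marrow, was under 4-fold with spike-in scaling too. The αV chain itself, Itgav, gave 120, 100 and 170 and reached 4-fold in no pair. Itgb4, the hemidesmosome chain, gave 83, 105 and 196, and all 3 of its scaled differences were within the scanner's error. Itgb6, the epithelial chain, was not well above background in any tissue.

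Of 8 laminin chains that could be compared between fetal liver and bone marrow, 2 were 4-fold or more higher in fetal liver and 0 in bone marrow, where 9.34% and 8.29% of all genes compared were. The median log2 difference of the 6 measured in both tissues was 1.35, beside 0.25 over all genes. With spike-in scaling it was -0.96, beside -2.06 over all genes. On that scale 0 of 7 chains compared were higher in fetal liver and 2 in bone marrow, against 2.23% and 53.6% of all genes. Lama5, the α chain of many adult basement membranes, gave 110 in adult and 412 in fetal liver, and 72.8 in bone marrow, 13.1-fold higher in fetal liver and 4.56-fold higher in adult liver, each against bone marrow. The gap of adult liver to bone marrow turned to bone marrow with spike-in scaling and fell short of 4-fold with median scaling (log2 1.82), quantile normalization (1.94), normexp (1.76) and in the authors' deposited table (1.86). Lamb2, a β chain of vessel and synaptic basement membranes, gave 114, 352 and 137, and fetal liver was 5.95-fold above bone marrow. With spike-in scaling the gaps of fetal liver to bone marrow fell short of 4-fold for both Lama5 and Lamb2. Lamc1, the γ chain of most laminins, gave 647, 2040 and 1190, and fetal liver was 3.97-fold above bone marrow, just short of 4-fold and turning to bone marrow with spike-in scaling. Lama5, Lamb2 and Lamc1, which can form 1 laminin trimer, were each highest in fetal liver, by 2.88-fold, 2.37-fold and 2.42-fold over adult liver, except that Lamc1 was highest in bone marrow with spike-in scaling.

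The other laminin chains were dim. Lamb3, a β chain of epithelial laminin that pairs with Lama3, gave 92.8 in adult liver and was not well above background in fetal liver (4.05) or bone marrow (17.5). Adult liver was at least 8.05-fold above fetal liver and at least 11.8-fold above bone marrow, the first falling short of 4-fold with normexp and in the authors' deposited table (log2 -1.29 and -1.77 for fetal over adult liver) and the second with spike-in scaling (log2 0.72). Its partner Lama3 gave 37.5, 20.3 and 39.4 in adult liver, fetal liver and bone marrow. Lama4 (111, 63.1 and 102) and Lamb1 (66.9, 116 and 165) were measured in all 3 tissues without reaching 4-fold. Lama2, the muscle laminin chain, was well above background in bone marrow only, at 39.9, Lamc3 in fetal liver only, at 17.1, and Lama1 in none. Lamc3 gave higher signals in adult liver (19.2) and bone marrow (21.7), where they were not well above that array's background. The scaled signal of Lama2 was 0.051 in adult liver, not well above background, and 0.045 in bone marrow. Neither call therefore ranks the tissues.

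The marker lists of the cells that lay down or border basement membrane differed as well. Endothelial markers were well above background for 10 of 10 genes in each tissue, with sums of 55.3 in adult and 23.8 in fetal liver, and 4.62 in bone marrow. Stellate and mesenchymal markers summed to 59.1, 93.1 and 35.2 (10, 9 and 8 of 10), with Lrat not well above background in fetal liver and bone marrow and Des not in bone marrow. Bile duct markers summed to 17.1, 5.25 and 17.6 (6, 7 and 5 of 10), but their median scaled signals were 0.341, 0.158 and 0.024. Cftr and Cldn4 were not well above background in any tissue. Epcam was not in either liver, Tspan8 not in adult liver, and Krt19, Sox9 and Onecut1 not in bone marrow. Mesothelial markers summed to 0.625, 1.43 and 0.221 (3, 6 and 2 of 6). The part of these cells in the differences of the β1 partners, Itgb5, Itgb8 and the laminins was not tested.

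The genes that match by name alone followed no single tissue. Itgb3bp, a kinetochore protein also named for binding β3, gave 144 in adult and 1040 in fetal liver, and 1550 in bone marrow, with fetal liver 5.55-fold above adult liver, or log2 1.90 with the mean of its probes. Itgb1bp1, a cytoplasmic inhibitor of β1 activation, gave 641, 926 and 2560 without reaching 4-fold. Itgbl1, a secreted protein with EGF-like repeats, was well above background in adult liver only, at 46.2, at least 4.01-fold over fetal liver and at least 5.88-fold over bone marrow, both falling short of 4-fold with normexp (log2 -0.77 for fetal over adult liver and 1.65 for adult liver over bone marrow) and in the authors' deposited table (-1.14 and 1.71), and the first with spike-in scaling (-1.47). The Itgbl1 bound against bone marrow was smaller than the spike-in shift and had no value on that scale. Itgb1bp2, the muscle protein melusin, was well above background in fetal liver only (23.3), and Nmrk2, a muscle kinase, in bone marrow only (35.6). Muscle markers were well above background for 5 of 10 genes in each liver and for 10 in bone marrow, with sums of 1.77, 4.64 and 10.6, and Myh1, Myh4, Ckm, Tnnt3 and Myl1 were not well above background in the livers. The part of muscle RNA in the Nmrk2, Lama2 and Itgb1bp2 signals was not tested.

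Counted over the family, 27 members were well above background in all 3 tissues and 4 in 2 tissues (Itga2b, Itgae, Itgam and Itgb2l). A further 6 were so in 1 tissue (Itgb1bp2, Itgbl1, Lama2, Lamb3, Lamc3 and Nmrk2) and 5 in none, Itga2, Itga10, Itgb6 and Lama1 among them. Of 32 members that could be compared between the livers, 6 were 4-fold or more higher in the fetal organ and 3 in the adult organ, where 26.2% of 14196 genes differed that much (12.0% higher in fetal and 14.2% in adult liver). Between fetal liver and bone marrow, 5 of 35 members were higher in fetal liver and 6 in bone marrow, against 17.6% of 14682 genes (9.34% and 8.29%). Between adult liver and bone marrow, 9 of 33 members were higher in adult liver and 10 in bone marrow, against 33.8% of 14252 genes (18.8% and 15.0%). With spike-in scaling these splits became 7 and 2 of 34, then 1 and 17 of 33, then 0 and 19 of 34. The shares over all genes on that scale were 18.1% and 10.2%, then 2.23% and 53.6%, then 5.83% and 66.5%. A member that passed the background limit in only 1 tissue had to be bright there, so these counts describe the members compared and support no statement about the family.

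By role, the integrin chains gave most of the bone marrow counts. Between adult liver and marrow, 6 of 23 integrin chains were 4-fold higher in the liver and 10 in the marrow, and between fetal liver and marrow 3 of 23 were higher in the liver and 6 in the marrow. The shares over all genes were 18.8% and 15.0% in the former pair, and 9.34% and 8.29% in the latter. With spike-in scaling these became 0 and 13, then 1 and 13, of 23 in each pair. On that scale the shares over all genes were 5.83% and 66.5%, then 2.23% and 53.6%. Of 7 laminin chains compared between adult liver and bone marrow, 2 were higher in adult liver and 0 in bone marrow (18.8% and 15.0% over all genes). These became 0 and 3 of 8 with spike-in scaling (5.83% and 66.5% over all genes). Among members measured in both tissues, the median log2 difference was 0.08 for fetal liver over adult liver, 0.38 for fetal liver over bone marrow and 0.85 for adult liver over bone marrow, beside -0.03, 0.25 and 0.16 over all genes. With spike-in scaling the last 2 medians of the members were -1.93 and -1.99, beside -2.06 and -2.68 over all genes. The 27 members measured everywhere had a median range of 5.67-fold between their highest and lowest tissue (1.28-fold to 53.1-fold), beside 2.93-fold over 11695 genes measured everywhere.

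**Figure D2:**
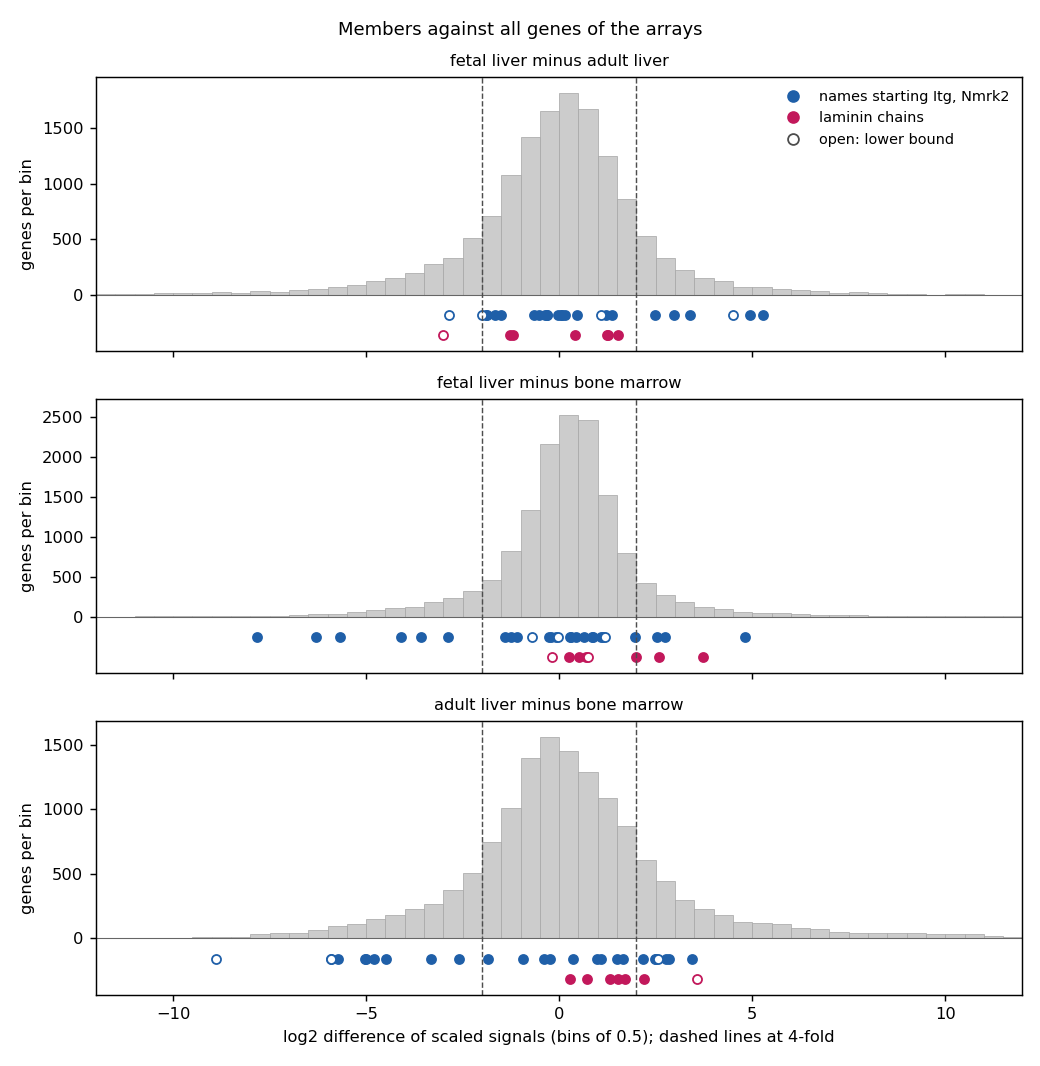
Histograms of the log2 difference of scaled signals over all genes for the 3 pairs of tissues, with the members as points (blue for integrin names and Nmrk2, pink for laminins, open for lower bounds) and dashed lines at 4-fold. Itgb2, Itgb2l, Itgam and Itgb7 lie toward the bone marrow end of both bone marrow panels, and no laminin point lies beyond 4-fold on that side, which holds for the percentile scaling and not for spike-in scaling.

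Cytoplasmic partners and ligands, taken from fixed lists, are given beside the chains. Of 22 cytoplasmic partners, 7 were 4-fold higher in adult liver and 9 in bone marrow in that comparison, where 18.8% and 15.0% of all genes were. The median log2 difference over the 19 measured in both was -1.03, beside 0.16 over all genes. Between the livers 6 of 22 were higher in fetal liver and 4 in adult liver (12.0% and 14.2% over all genes). Of 21 compared between fetal liver and marrow, 6 were higher in the liver and 1 in the marrow (9.34% and 8.29% over all genes), with a median of -1.26 beside 0.25. That split was 5 and 8 with median scaling (6.76% and 10.6% over all genes) and 1 and 14 with spike-in scaling (2.23% and 53.6%). Spike-in scaling turned the split between adult liver and bone marrow to 4 and 14 of 21 (5.83% and 66.5%). Lims2, an adaptor that binds integrin-linked kinase, gave 11900 in adult and 84.9 in fetal liver, and 40 in bone marrow, 182-fold above fetal liver and 898-fold above bone marrow. Fermt2, the kindlin of most adherent cells, gave 6560, 1940 and 208, with adult liver 95.1-fold and fetal liver 21.6-fold above bone marrow. Fermt3, the kindlin of blood cells, gave 46.9, 832 and 6700, and fetal liver was 13.6-fold above adult liver. Parvg, the parvin of blood cells, gave 33.9, 310 and 6990, and bone marrow was 68.3-fold above adult liver. Of the remaining partners with the 3 largest measured differences in a pair, Apbb1ip, an adaptor that links Rap1 to talin, gave 43.7, 748 and 6180, with fetal liver 13.1-fold and bone marrow 46.9-fold above adult liver. The adaptor Bcar1 gave 3020, 1050 and 138, with fetal liver 17.6-fold and adult liver 66.0-fold above bone marrow. The focal adhesion kinase Ptk2 gave 273, 576 and 112, with fetal liver 11.9-fold and adult liver 7.35-fold above bone marrow.

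Of the 22 matrix ligands and basement membrane genes, 11 of 19 compared were 4-fold higher in fetal liver than in bone marrow and 0 were higher in bone marrow, where 9.34% and 8.29% of all genes were. The median log2 difference over the 18 measured in both was 2.09, beside 0.25 over all genes. The split was 6 and 1 with median scaling (6.76% and 10.6% over all genes) and 2 and 7 with spike-in scaling (2.23% and 53.6%). The spike-in median was -0.22, beside -2.06 over all genes. Perlecan (Hspg2), Nid2 and Col4a1, the partners of laminin in the basement membrane, had the largest differences among those measured in both tissues, at 20.5-fold, 15.0-fold and 10.1-fold. Between adult liver and bone marrow, 9 of 20 were higher in adult liver and 5 in bone marrow (18.8% and 15.0% over all genes), and the largest differences measured in both were those of the laminin receptor Dag1 at 17.3-fold, the junction protein F11r at 10.96-fold and Hspg2 at 9.14-fold, all higher in adult liver. Spike-in scaling turned that split to 1 and 7 of 19 (5.83% and 66.5% over all genes). Between the livers, 3 of 20 were higher in the fetal and 2 in the adult organ, together 25.0%, near the 26.2% over all genes. The plasma proteins vitronectin (Vtn) and fibronectin (Fn1) were 11.2-fold and 8.19-fold higher in adult liver, and Vcam1, the ligand of α4β1, was 5.39-fold higher in fetal liver.

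Members with several probes give the only repeat measurement within an array besides repeated spots. Of 16 members with several probes comparable between adult liver and bone marrow, 2 (Itgb1 and Itgb3) had a probe that went opposite to the probe used. Between the livers, 5 of 16 such members did (Itga1, Itga3, Itgb1, Itgb3 and Itgb4), and so did 5 of 16 in the comparison of fetal liver with bone marrow (Itga1, Itga3, Itga6, Itgb1 and Itgb3). The differences of Itgb2, Itgb2l, Itgb7, Itga2b, Itgb5, Lama5, Lamb2, Lamb3 and Itgbl1 rest on 1 probe each, and those of Itgb8 and Itgae on 1 comparable probe each. Those of Itgam and Itgal rest on 2 that went the same way. By the scanner's own error, 8 of 27 members measured in both livers did not differ beyond 1.96 times that error, nor did 6 of 30 when fetal liver was set against bone marrow, or 3 of 28 when adult liver was. The 8 include Itgb1, whose error was that of a single spot and was not reduced for its 10 spots.

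**Figure D3:**
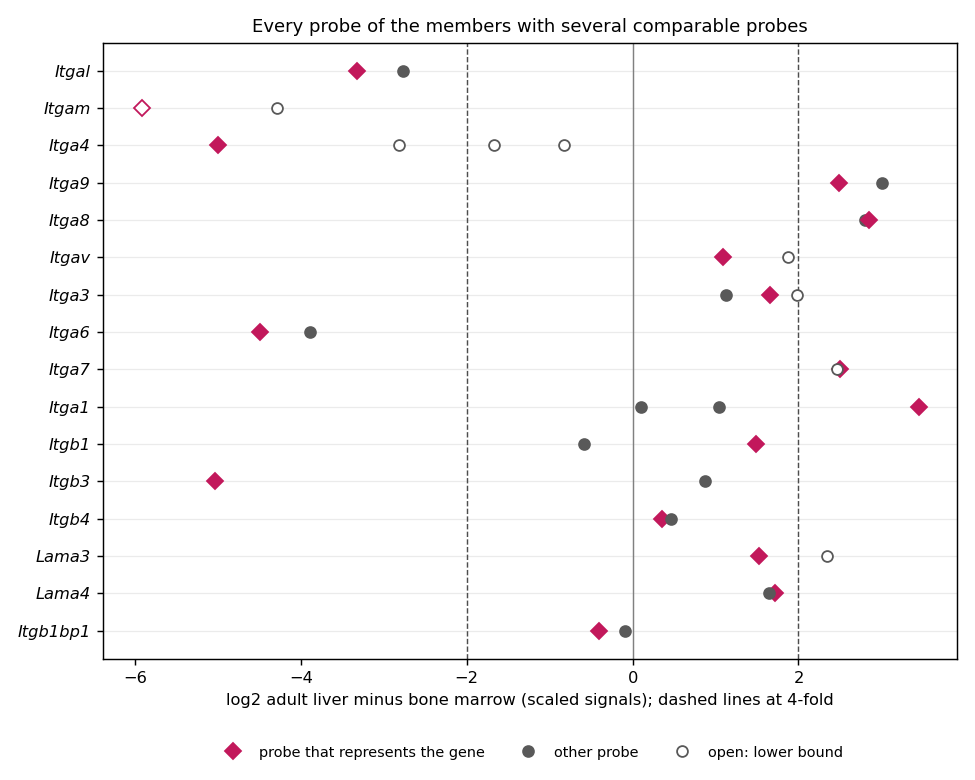
Log2 difference of adult liver minus bone marrow for every comparable probe of the 16 members with several comparable probes, with a diamond for the probe that stands for the gene. For Itgb3 the diamond lies far toward bone marrow while the other probe lies on the adult liver side.

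**Figure D4:**
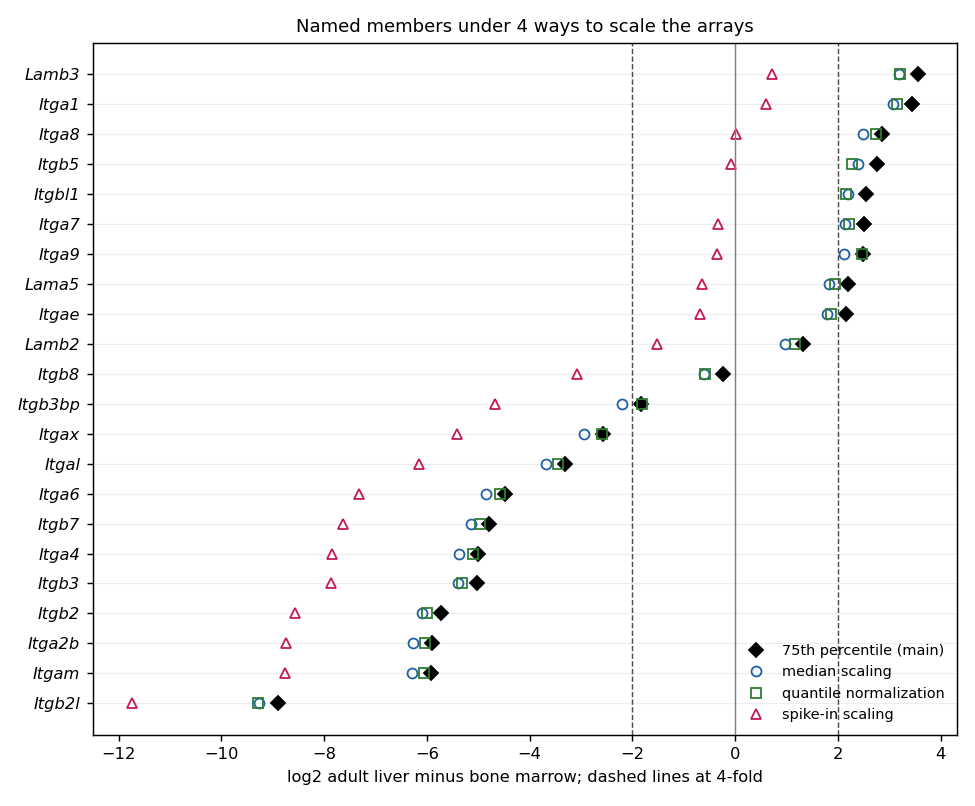
Log2 difference of adult liver minus bone marrow for the 22 members that reached 4-fold in any pair, under 4 scalings. Spike-in scaling moves every point by -2.84 against the percentile scaling, except that Itgbl1, a lower bound, has no value there. This carries Itga7, Itga9, Itgae, Itgb5, Lama5 and Lamb2 across 0, while Itgb2, Itgb2l, Itga4 and Itgb3 stay on the bone marrow side under all 4.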

How the data were processed

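Total RNA of 3 C57BL/6 mouse tissues was read on 1-colour Agilent arrays with Feature Extraction 10.5.1.1, per the submitters' processing notes. The deposited scanner files hold the processed signal intensity of each spot, which the headers record as background-subtracted and without scaling across arrays. The authors' series table holds a raw intensity, which matched the scanner error rather than the signal (within 1% for all 45018 spots per array), and a normalized ratio made from it, so it served only as an alternative.

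From the scanner files, log2 signals minus the 75th percentile of each array were computed (Python 3.11.15, numpy 2.4.6, pandas 2.3.3; limma 3.58.1 in R 4.3.3 for the normexp alternative). Outlier spots were left out, spots of a probe were averaged, and the probe well above background on most arrays, then the brightest, stood for its gene. Of 41174 probes, 32714 were named through a RefSeq table (GRCm38.p6), and the other 8460 are unnamed here. Probe positions are those of the files (mm9); exon and UTR annotation of that build was not used here. Members that reached 4-fold in any pair of tissues were given with all 3 values, together with their partner chains, and of each partner list the 3 genes with the largest measured difference in each pair. Members and lists were chosen with earlier results of these data known. The fold rule was tested on simulated signals. The values of 1 member are not reported here. Alternatives were other scalings, normexp, the mean of all probes, probes above background on all arrays, outliers kept, the deposited table, and folds of 2 and 8. With 1 array per tissue, the number of arrays limits the precision.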

Additional observations from a re-analysis of the deposited data

How the results depend on the processing

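No paired analysis was possible because each tissue had 1 array. Of the 39 member differences of 4-fold or more, all kept that size and direction when outlier spots were kept, 37 under median scaling, 37 under quantile normalization, 32 in the deposited table, 31 with the mean of all probes, 30 with normexp, and 25 of 38 with spike-in scaling. With spike-in scaling 5 differences of adult liver minus bone marrow changed sign: Itga7 to -0.34, Itga9 to -0.35, Itgae to -0.68, Itgb5 to -0.073 and Lama5 to -0.65 on the log2 scale. The same scaling left 1 of 33 members higher in fetal liver and 17 in bone marrow in that pair (2.23% and 53.6% over all genes). Between adult liver and bone marrow it left 0 of 34 higher in adult liver and 19 in bone marrow (5.83% and 66.5%). The count higher in adult liver than in fetal liver went from 3 to 0 with normexp, in the deposited table and with probes well above background on all arrays; Itgae, Lamb3 and Itgbl1 are dim in fetal liver and were lower bounds. Normexp also left 5 of 33 members higher in adult liver in its comparison with bone marrow, against 15.3% of all genes. At 2-fold, the splits were 12 fetal and 9 adult liver, 10 fetal liver and 9 bone marrow, and 15 adult liver and 11 bone marrow. At 8-fold they were 4 and 1, 2 and 5, and 2 and 9 in the same order. With the mean of all probes, Itga1, Itgae, Itgax, Itgb3bp and Itgb8 each fell short of 4-fold in at least 1 pair. Beyond these constructions the cause of a shift was not tested. Signals near the lowest value well above background (18.9, 15 and 23.7 in adult liver, fetal liver and bone marrow) limit Lama2, Lama3, Lamc3, Itgb1bp2 and Nmrk2.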

Other observations

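Within some families of cytoplasmic partners, related genes differed between tissues in opposite directions. These pairs were picked after their values were seen. Of the kindlins, Fermt2 was 95.1-fold higher in adult liver against bone marrow and Fermt3 was 47.4-fold higher in bone marrow (signals 46.9 and 6700). Of the adaptors that bind integrin-linked kinase, Lims2 was 898-fold higher in adult liver, and Lims1, with signals of 146 in adult and 1040 in fetal liver, and 7590 in bone marrow, was 17.2-fold higher in bone marrow. Of the parvins, Parva (607, 85.4 and 36.2) was 50.6-fold higher in adult liver and Parvg was 68.3-fold higher in bone marrow. These directions also held under spike-in scaling, whose shift against bone marrow is smaller than each difference. Fetal liver lay between adult liver and bone marrow for all 6 genes in the scaled signal.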
